A study of Mus musculus with 4 samples.

Results

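AP-1 is a family of transcription factors that bind DNA as dimers, and the genes described here encode 9 of its proteins: Jun, Junb and Jund of the Jun family, Fos, Fosb, Fosl1 and Fosl2 of the Fos family, and Batf and Batf3. The members were every probe set whose only gene symbol in the platform annotation is one of these 9 genes, 13 of the 45037 probe sets tested and 9 of 18193 genes. Jun, Jund, Fosl1 and Fosl2 had 2 probe sets each and the other 5 genes had 1. No probe set carried a member among several symbols. The genes were chosen by family, with the log2 differences between GSI and DMSO described below already known, among them that of Jund and the disagreement of its probe sets. Their differences are therefore given as a description. No p-value is given for a member, and the count of members past limma's threshold is printed beside the share of all probe sets, with nothing read from it.

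RNA came from T29, a mouse cell line from a thymic lymphoma, on 4 arrays. By their titles, 2 arrays hold cells given DMSO, the solvent, and 2 hold cells given GSI. GSI is the gamma-secretase inhibitor MRK003, whose dose the labels write as 5 mM for 36 h. That treatment text is the same for all samples, so the exposure time of the DMSO cells is not stated separately, and the unit of the dose could not be checked. The labels give no genotype for the line and do not say whether replicates were separate cultures, so the spread between them may be technical. In such bulk RNA, fewer cells of a kind and less RNA per cell cannot be told apart.

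Jun proteins pair with each other or with Fos proteins through a leucine zipper, and the dimer binds the AP-1 site beside genes of growth, survival and cell activation. Fos and Batf proteins do not form stable dimers alone and take a Jun protein as partner. In T cells, signals from the antigen receptor induce Fos and Jun within minutes and activate their proteins through MAP kinases, whereas Jund is usually made without a stimulus. Gamma-secretase releases the intracellular part of Notch receptors, which acts in the nucleus with the DNA-binding protein RBPJ.

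Values are log2 expression after RMA, a normalization between arrays, and a difference of 1 is a 2-fold difference. With GSI, a Jund probe set was 3.21-fold higher and a Jun probe set was 3.90-fold lower, and the remaining 11 lay between 0.66 lower and 0.24 higher on the log2 scale. In limma's fit over all probe sets, which called 1.39% of them in either direction, 1 member probe set was past an adjusted p of 0.05 upwards, where 0.948% of all probe sets were, and 1 downwards, where 0.446% were. The arrays of the groups did not overlap for 3 members that were higher with GSI and 5 that were lower, against 21.3% and 25.2% of all probe sets. The median difference over the 13 members was 0.03, beside -0.01 over all probe sets. The choice of members used this contrast.

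**Figure D1:**
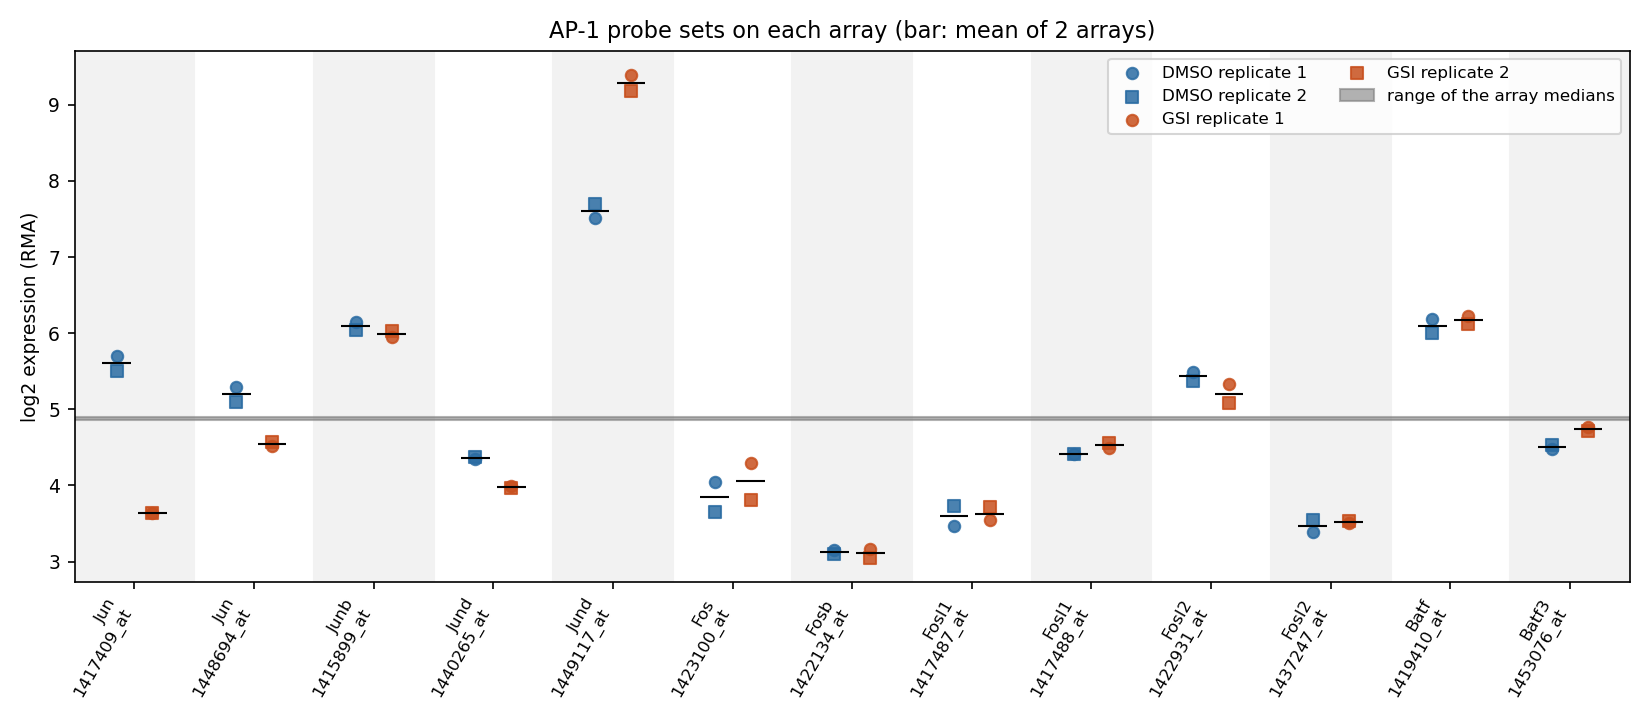
Log2 expression (vertical axis) of the 13 AP-1 probe sets (horizontal axis) on each of the 4 arrays: circles are replicate 1, squares replicate 2, black bars the mean of 2 arrays, and the grey band the range of the array medians. Jund probe set 1449117_at stands at 9.18 and 9.39 with GSI against 7.51 and 7.69 with DMSO, and both Jun probe sets pass from above to below the array medians.

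The whole-array picture was as follows. The array medians lay between 4.86 and 4.89. Of 10 T cell target genes of Notch, 6 fell, led by the ubiquitin ligase gene Dtx1 (-3.53 on the log2 scale; limma, adjusted p = 0.00125), 0 rose and 4 did not pass. On the dimmer Dtx1 probe set the difference was -0.99. Of 10 measured T lineage markers, 9 lay above the array median on all arrays. The B cell markers (0 of 5), the myeloid markers (2 of 8) and the stromal and epithelial markers (2 of 8) seldom did. Of 6 mast cell markers 2 rose, Cpa3 (2.80; limma, adjusted p = 0.0211) and Kit (0.86; limma, adjusted p = 0.0183). The median difference of this list was -0.01. The summed level of the 6 on the linear scale was 133 and 184 with DMSO and 582 and 862 with GSI. That sum mostly reflects Cpa3, the brightest of them, at 6.86 and 6.09 with DMSO and 9.60 and 8.96 with GSI on the log2 scale. The other markers of this list, Fcer1a, Ms4a2, Mcpt4 and Mcpt8, stayed between 2.61 and 3.66 on every array and did not pass. The part of these marker genes in the AP-1 values was not tested.

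Jun encodes c-Jun, the Jun protein with the strongest transactivation and a main target of the JNK kinases. On probe set 1417409_at its log2 expression was 5.71 and 5.50 with DMSO and 3.64 on both arrays with GSI. The groups did not overlap, and the difference was -1.96 with a standard error (SE, from limma's moderated fit) of 0.11. Both GSI values are the same number as deposited, so their SD of 0 does not describe the precision. As deposited, 299 probe sets (0.664% of all) had equal values on both GSI arrays and 347 (0.770%) on both DMSO arrays. Of those equal on the GSI arrays, 232 lay below the array medians. The value of 3.64 is itself low, with 28.4% of all probe sets lower on the GSI arrays, and the background level of the probe set was not analysed here. The fold is therefore uncertain in size.

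The other Jun probe set, 1448694_at, read 5.30 and 5.09 with DMSO and 4.51 and 4.57 with GSI. Again both GSI arrays lay below both DMSO arrays, here by 0.66 (SE 0.11), or 1.58-fold. Both Jun probe sets thus stood above the array medians with DMSO and below them with GSI, and they had the same direction but differed by 1.31 in size. Their mean gave a difference of -1.31. Without DMSO replicate 1, DMSO replicate 2, GSI replicate 1 or GSI replicate 2 in turn, the differences ranged from -2.07 to -1.86 for 1417409_at and from -0.76 to -0.55 for 1448694_at.

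The bases before the Jun start are shown because Jun was lower on both of its probe sets and because its promoter is a classical AP-1-responsive one. Below are the 250 bases before the annotated start from RefSeq (GRCm38.p6, chr4:95052223-95052472, minus strand), with the letters TGGGAA and TGACATCA in capitals. TGGGAA is the core of the sequence that RBPJ binds, and TGACATCA is a variant AP-1 site known from the Jun promoter. Other variants of the AP-1 site were not searched for and are not marked.
Jun: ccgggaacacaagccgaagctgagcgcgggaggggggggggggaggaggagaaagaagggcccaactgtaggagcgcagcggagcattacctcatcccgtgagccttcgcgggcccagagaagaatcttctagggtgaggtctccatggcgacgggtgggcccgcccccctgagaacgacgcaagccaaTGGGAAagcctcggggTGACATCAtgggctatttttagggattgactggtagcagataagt

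The RBPJ core lay 61 to 56 bases before the start, sharing 1 base with a CCAAT box (CCAAT, 65 to 61 bases before), and TGACATCA lay 45 to 38 bases before. A match to the MEF2 site followed at 33 to 24 bases before the start. Searched on both strands of 32851 windows of the same length, TGGGAA was present in 21.6%, CCAAT in 33.8%, TGACATCA in 2.93% and the MEF2 site in 0.103%. These matches describe the letters and show no binding in these cells.

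Junb encodes a Jun protein that can oppose c-Jun and that activated T cells make strongly. Its probe set 1415899_at read 6.15 and 6.04 with DMSO and 5.95 and 6.02 with GSI. The GSI arrays were lower without overlap, but the difference of -0.11 (SE 0.10) was about the size of its error. The gap between the groups was smaller than the range within either of them.

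Jund encodes a Jun protein that is often abundant in cells at rest and that, with its partner menin, has been linked to slower growth. On probe set 1449117_at log2 expression was 7.51 and 7.69 with DMSO and 9.39 and 9.18 with GSI. Both GSI arrays lay far above both DMSO arrays, by 1.68 (SE 0.12), or 3.21-fold, and each array was above its median. On the dimmer Jund probe set, 1440265_at, the values were 4.35 and 4.37 with DMSO and 3.99 and 3.97 with GSI. There the GSI arrays were lower without overlap, by 0.38 (SE 0.09), and all 4 values were below the array medians.

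The Jund probe sets thus pointed in opposite directions, and their differences lay 2.07 apart on the log2 scale. The rule that chose the genes names this disagreement, so it is given as a description, and it rests in part on a probe set that is dim on every array. Fosl1 and Fosl2 had gaps of 0.09 and 0.28, and the median gap over 4695 genes with 2 probe sets was 0.13. Averaging both Jund probe sets gave a difference of 0.65. Leaving out each array in turn gave 1.58 to 1.79 for 1449117_at and -0.39 to -0.37 for 1440265_at. The groups overlapped on neither probe set, so leaving out an array could not have turned either sign. Where in the transcript each Jund probe set lies was not analysed here.

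**Figure D2:**
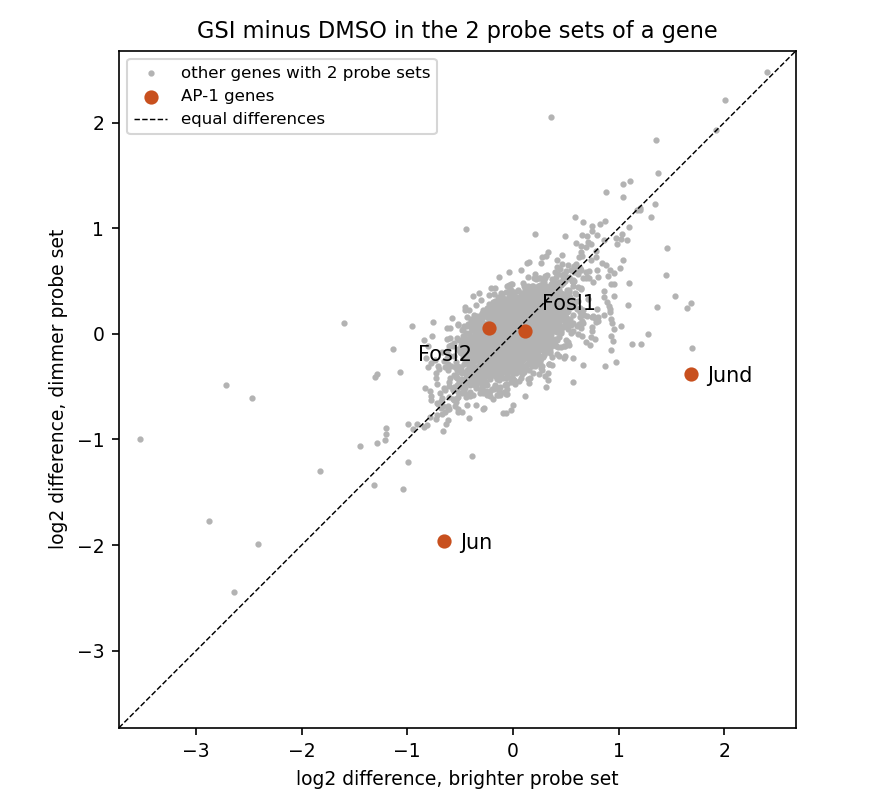
Log2 difference (GSI minus DMSO) of the brighter (horizontal axis) and the dimmer probe set (vertical axis) of each of the 4695 genes with 2 probe sets, grey for other genes and coloured for AP-1 genes, with a dashed line where both are equal. Jund lies at 1.68 and -0.38, Jun at -0.66 and -1.96, and Fosl1 and Fosl2 lie near 0 in both.

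The bases before the Jund start are given for comparison with Jun, since the brighter probe set moved the other way. RefSeq lists 2 curated Jund transcripts, and the table used here holds 1 start for the gene, so this window need not be the one used in T29 cells. The 250 bases before it (GRCm38.p6, chr8:70697489-70697738, plus strand) read as follows, with TTCCCA, the reverse complement of the RBPJ core TGGGAA, in capitals.
Jund: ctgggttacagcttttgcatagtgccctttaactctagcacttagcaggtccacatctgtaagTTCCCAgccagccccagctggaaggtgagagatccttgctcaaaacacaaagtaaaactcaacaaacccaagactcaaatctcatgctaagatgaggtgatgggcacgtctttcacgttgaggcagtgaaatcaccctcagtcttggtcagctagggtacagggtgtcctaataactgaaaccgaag

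That match lay 187 to 182 bases before the start. G and C made up 47.6% of the Jund window and 61.2% of the Jun window, against a median of 52.4% over all windows. Windows were found for 8 of the 9 members. The Fosb window (chr7:19310046-19310295, minus strand) overlapped the annotated gene, which spans 19302696 to 19310118. Beside Jun and Jund, Batf held the RBPJ core, 140 to 135 bases before its start. The RBPJ core was in 21.6% of all windows, and its part in the differences of these genes was not tested. The letters TGACGT, the core of the cyclic AMP response element, were found before Fos (66 to 61 bases) and Batf (98 to 93 bases) and in 6.47% of all windows. Junb held CCAAT. The AP-1 site TGANTCA (6.75% of all windows), the whole element TGACGTCA (1.55%) and the CArG box bound by serum response factor (1.47%) were in none of the 8 windows, which says only that these letters are not within these 250 bases.

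Fos encodes c-Fos, the prototype of the immediate early genes. Its probe set 1423100_at was dim, at 4.05 and 3.65 with DMSO and 4.30 and 3.81 with GSI. The groups overlapped, with replicate 1 above replicate 2 by 0.40 in the DMSO group and by 0.49 in the GSI group. The difference of 0.20 had an SE of 0.21, the widest of the 13, and leaving out each array in turn moved it between -0.04 and 0.45. Over all probe sets 26.8% were lower on replicate 2 in both groups. The labels do not say what, if anything, same-numbered arrays share.

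Fosb, Fosl1 and Fosl2 encode the other Fos proteins, of which Fra-1 (Fosl1) and Fra-2 (Fosl2) lack the strong activation domain of c-Fos. Fosb (1422134_at) read 3.15 and 3.10 with DMSO and 3.17 and 3.05 with GSI, so its groups overlapped. Its difference was -0.01 (SE 0.10) and turned to 0.01 after cyclic loess normalization. Fosl1 had 3.47 and 3.73 with DMSO and 3.55 and 3.71 with GSI on 1417487_at, which also overlap. On 1417488_at Fosl1 had 4.41 on both arrays with DMSO and 4.50 and 4.56 with GSI, higher by 0.12 (SE 0.09) without overlap. All Fosb and Fosl1 values lay below the array medians.

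Fosl2 was the Fos gene with a probe set above the array medians on all arrays. That probe set, 1422931_at, read 5.49 and 5.38 with DMSO and 5.33 and 5.08 with GSI. The GSI arrays were lower without overlap, by 0.23 (SE 0.12), and the gap from the higher GSI array to the lower DMSO array was small beside the spread within the GSI group. The dim Fosl2 probe set, 1437247_at, read 3.38 and 3.55 with DMSO and 3.51 and 3.53 with GSI, overlapping, with a difference of 0.05 (SE 0.10). The mean of both Fosl2 probe sets differed by -0.09.

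Batf and Batf3 encode small proteins with little beyond a basic region and a zipper, which pair with Jun proteins and bind composite sites with the interferon regulatory factors Irf4 and Irf8. Batf (1419410_at) lay above the array medians throughout, at 6.18 and 6.005 with DMSO and 6.22 and 6.12 with GSI. These groups overlapped, and the difference was 0.08 (SE 0.11). Batf3 (1453076_at) read 4.48 and 4.53 with DMSO and 4.77 and 4.71 with GSI. Both GSI arrays were higher, by 0.24 (SE 0.09) or 1.18-fold, at a level below the array medians, and leaving out each array in turn gave 0.21 to 0.26.

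**Figure D3:**
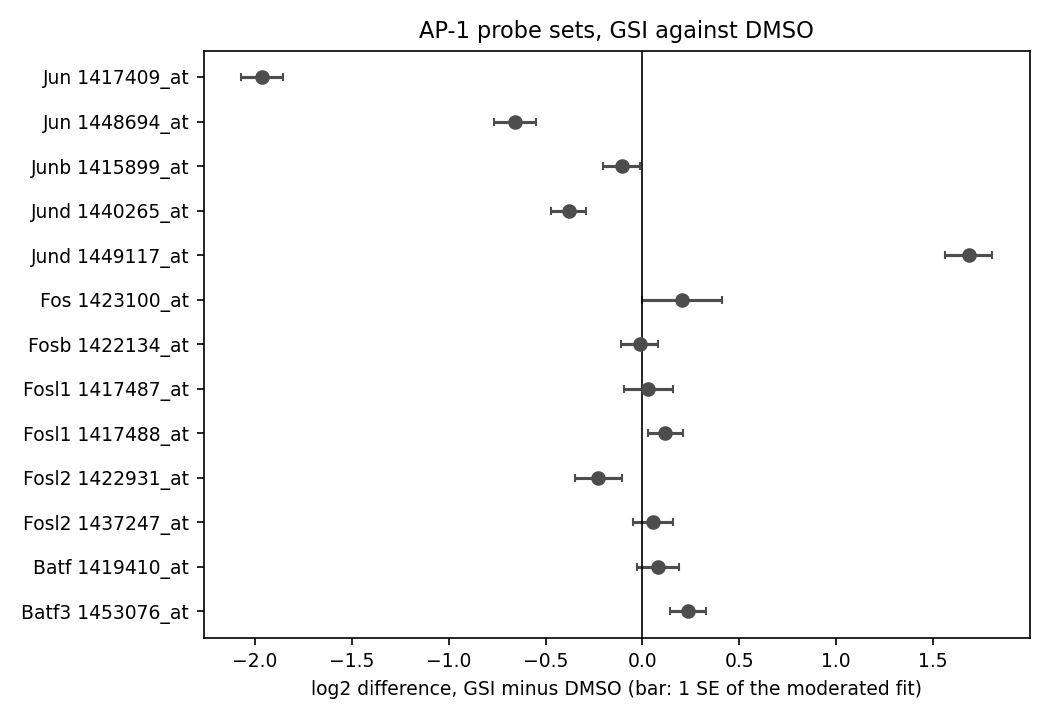
Log2 difference, GSI minus DMSO, of each AP-1 probe set (horizontal axis), with 1 SE of limma's moderated fit over 2 arrays per group as the error bar. Jund 1449117_at stands at 1.68 and Jun 1417409_at at -1.96, while the Fos and Batf probe sets lie between -0.23 and 0.24.

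By family, the Jun genes held the 4 differences of largest size, on both Jun and both Jund probe sets, and the 9 remaining probe sets all differed by less than 0.25. Of the 13 probe sets 7 lay below the array medians on all 4 arrays, among them every probe set of Fos, Fosb, Fosl1 and Batf3. Low signals are compressed by this kind of array, so a small difference there does not show that the transcript was unchanged. Centring the arrays or cyclic loess moved no member difference by more than 0.0234 and turned the sign of Fosb alone.

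The genes other than members that were closest to the brighter Jund probe set over the 4 arrays, by root mean square difference after centring each on its mean, were Papss2 (0.050), Emp3 (0.074), Ms4a4b (0.090), Syn2 (0.099) and Trav9d-3 (0.103). Papss2, an enzyme gene of sulphate activation, read 8.42 and 8.51 with DMSO and 10.28 and 9.97 with GSI. These genes differed by 1.49 to 1.82 on the log2 scale. With 4 arrays in 2 groups, likeness here means little more than a difference of similar size.

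The other genes of AP-1 regulation were taken from 8 lists, of which 99 of 108 genes were measured, each by its probe set with the highest mean. Of these 3 rose, 1 fell and 95 did not pass (limma, adjusted p under 0.05), beside 1.26% and 0.599% of all genes. Their median difference was -0.02, and that of all genes was -0.01. These 4 calls were lost whenever 1 array was left out, as were all others in the fit.

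**Figure D4:**
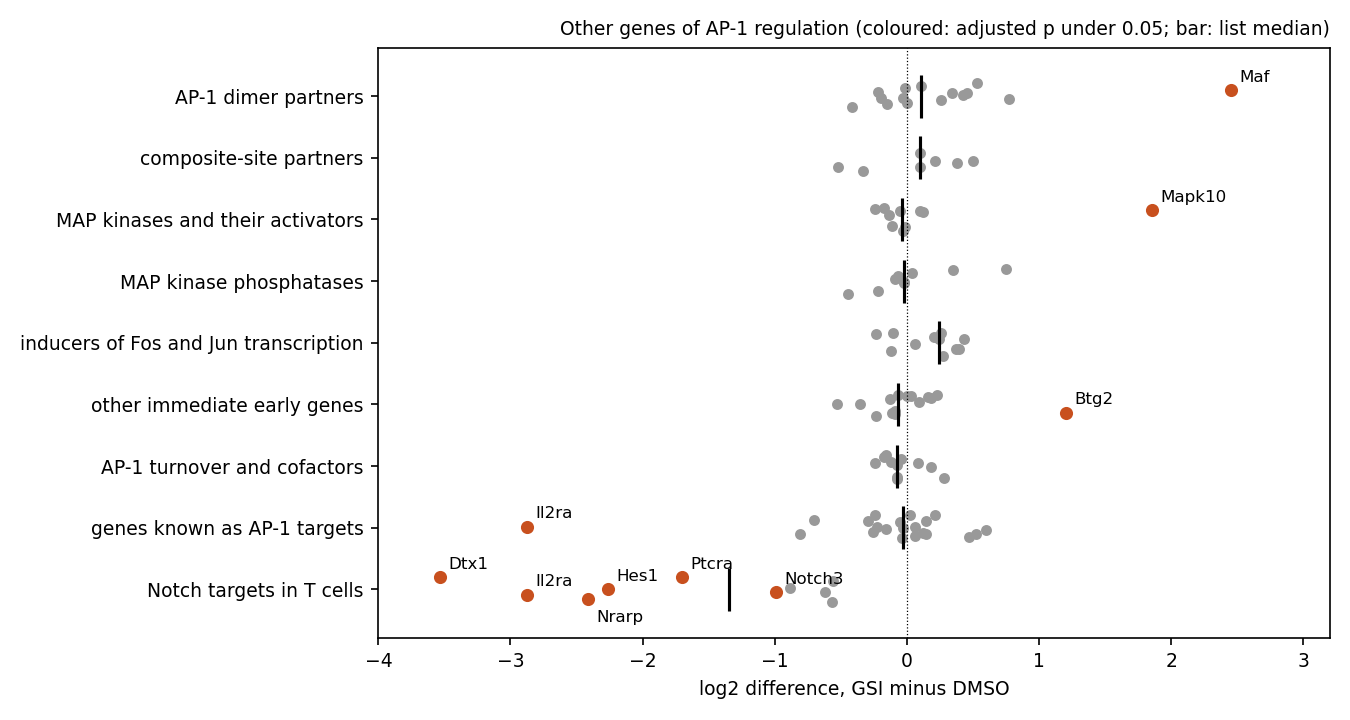
Log2 difference, GSI minus DMSO (horizontal axis), of each measured gene of the 8 AP-1 lists and of the Notch target list; coloured and named points passed limma at an adjusted p under 0.05, black bars are list medians, and vertical scatter within a list has no meaning. Most genes of the 8 AP-1 lists lie near 0, apart from Maf at 2.45, Mapk10 at 1.86, Btg2 at 1.21 and Il2ra at -2.87. The Notch target list has a median of -1.35, and its lowest gene is Dtx1 at -3.53.

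Among 15 genes of other bZIP proteins, some of which can pair with Jun or Fos, 1 rose, 0 fell and 14 did not pass (list median 0.10). The riser was Maf, a large Maf factor of T cells, at 6.23 and 5.82 with DMSO and 8.68 and 8.27 with GSI, a difference of 2.45 (SE 0.19; limma, adjusted p = 0.0102). Of its 6 probe sets 3 passed, and 1447945_at differed by -0.01. Without passing, Jdp2, a repressor that pairs with Jun and was named after its value was seen, differed by 0.77 (limma, adjusted p = 0.0778), and its dimmer probe set by -0.05. Of 7 factors that bind composite sites beside AP-1, 0 passed limma, while an unadjusted p under 0.05 was reached by 2 upwards and 2 downwards. Of the Batf partners, Irf4 differed by -0.52 (limma, adjusted p = 0.0785), and Irf8, named after its value was seen, by 0.50 in the other direction (limma, adjusted p = 0.155), each without overlap of the groups. Nfatc1, which binds with Fos and Jun at cytokine genes, differed by 0.38 (limma, adjusted p = 0.151).

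Of 10 measured MAP kinases and their activators, 1 rose and 9 did not pass (list median -0.04). That gene was Mapk10, encoding the kinase JNK3, at 7.51 and 7.62 with DMSO and 9.36 and 9.49 with GSI, a difference of 1.86 (SE 0.10; limma, adjusted p = 0.00546). A further Mapk10 probe set rose by 1.64 and the dimmest differed by 0.30 without passing. The remaining JNK genes, Mapk8 and Mapk9, also named after their values were seen, differed by 0.12 and -0.01 and did not pass. Of 9 MAP kinase phosphatase genes 0 passed limma, and 1 had an unadjusted p under 0.05, upwards (list median -0.02). Dusp2, made by activated lymphocytes, differed by 0.75 (limma, adjusted p = 0.202) and Dusp10, which acts on JNK and p38, by -0.44 (limma, adjusted p = 0.324). Of these 9 genes 6 were lower on replicate 2 in both groups, where 26.8% of all probe sets were.

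Among 11 factors that bind the Fos and Jun promoters or, like Mrtfa and Mrtfb, act there as coactivators, 0 passed limma, 4 had an unadjusted p under 0.05, each upwards, and the list had a median of 0.25. The share of all genes with an unadjusted p under 0.05 is not given here, so nothing is read from such counts in any list. Mef2d and Mef2a, whose proteins bind the MEF2 site of the Jun promoter, differed by 0.43 (limma, adjusted p = 0.109) and 0.37 (limma, adjusted p = 0.139). Of 15 other immediate early genes 1 rose, 0 fell and 14 did not pass (list median -0.07). Btg2, an antiproliferative gene, read 10.02 and 10.04 with DMSO and 11.43 and 11.05 with GSI (difference 1.21, SE 0.14; limma, adjusted p = 0.0246), and its other probe set rose by 1.20. Of these 15 genes 8 were lower on replicate 2 in both groups. The same held for 1 of 15 bZIP genes, 4 of 7 composite-site factors and 2 of 10 MAP kinases and activators. It also held for 2 of 11 factors of the Fos and Jun promoters. In the lists described next, it held for 3 of 11 turnover and cofactor genes and 6 of 21 AP-1 targets.

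Of 11 genes of AP-1 protein turnover and cofactors 0 passed limma, and 0 did so at an unadjusted p under 0.05 in either direction. The smallest p-values belonged to Gsk3b, a kinase that marks Jun proteins for destruction or restrains their binding (0.28; limma, adjusted p = 0.319), and Det1, part of a ubiquitin ligase for Jun (-0.24; limma, adjusted p = 0.447). Men1, encoding the Jund partner menin, was named after its value was seen and differed by -0.12. Among 21 genes known as AP-1 targets 0 rose, 1 fell and 20 did not pass (list median -0.03). Only 9 of the 21 lay above the array median on all arrays, so not passing need not mean that a transcript was unchanged. An unadjusted p under 0.05 was reached by 1 upwards and 4 downwards (limma). The gene that fell was Il2ra, encoding a chain of the receptor for interleukin-2, at 8.83 and 9.11 with DMSO and 6.11 and 6.07 with GSI, a difference of -2.87 (SE 0.12; limma, adjusted p = 0.00271). Il2ra is also a Notch target, and its dimmer probe set differed by -1.78 without passing (limma, adjusted p = 0.0526).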

How the data were processed

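RNA of 4 T29 samples was hybridised to Affymetrix arrays. The deposited values are log2 expression, 1 per probe set and array, made by the authors with RMA, per the submitters' processing notes. The RMA version is not given in the sources used here. Of 45101 probe sets, with 0 values missing, 64 control probe sets were left out. Of the other 45037, 34945 had 1 symbol, 932 several and 9160 none. Where RefSeq's GRCm38.p6 annotation held the gene identifier (34741), its symbol was used.

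Every probe set was fitted with limma 3.58.1 in R 4.3.3 (group as the only term, default eBayes, two-sided), with Benjamini-Hochberg adjustment over all probe sets and a threshold of 0.05. Degrees of freedom were 5.77, the prior's 3.77 included. A listed gene was represented by its 1-symbol probe set with the highest mean; listed genes without one were not analysed here. The members and lists were chosen with earlier results of these data known. Genes named are all members, up to 3 called genes per list with the largest differences (or the 2 with the smallest p), and the 5 most like the brighter Jund probe set; others are marked.

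The fit was tested on simulated data. Alternatives were 1 probe set per gene, probe sets averaged per gene, a filter on dim probe sets, an intensity trend with robust prior, a 2-fold minimum, median centring, a replicate block, cyclic loess, and fits without each array. For arrays, their number limits the precision. Groups of 2 are too small for an outlier test.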

Additional observations from a re-analysis of the deposited data

How the results depend on the processing

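Over all probe sets 427 were higher and 201 lower with GSI. There were 969 and 587 with dim probe sets (mean under 4.88) left out, 1338 and 1034 with the intensity trend and robust prior, 202 and 108 with a 2-fold minimum, and 379 lower with probe sets averaged per gene. The replicate number as a block gave 37 and 28. Same-numbered arrays deviated together at a correlation of 0.07 over all probe sets. The labels do not pair them and do not say what, if anything, they share. Leaving out any 1 array gave 0 to 0 calls for all probe sets, members and pathway genes in both directions; the lone array of a group was then assumed to vary like the other group. Of the members, 1 was called higher and 1 lower. With the replicate block 0 were higher. With dim probe sets left out 0 were lower, since both Jun probe sets were then untested, and with the trend and robust prior or with centred arrays 2 were lower, both of them Jun. Pathway genes called higher, 3 in the report, numbered 5 without dim probe sets and 8 with the trend and robust prior, and 2 with the replicate block, where Btg2 did not pass (limma, adjusted p = 0.0876). Those called lower, 1 in the report, numbered 3 with 1 probe set per gene, without dim probe sets or with the trend and robust prior, and 2 with the mean of probe sets, centred arrays or cyclic loess; Hbegf (-0.81, limma, adjusted p = 0.0198 to 0.0446 in these, or -0.56 as the mean of probe sets) was among them each time. Other counts stayed within 1.5 times. The cause of these changes was not tested beyond what is said. No array file gave a scan date or slide used here, and depth does not apply to arrays; dim signals limit the Fos, Fosb, Fosl1 and Batf3 values.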

Other observations

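Some marker and Notch target genes picked by the naming rule belong to no comparison above, and their differences on the log2 scale are given here. Of 10 measured T lineage markers 2 rose, 0 fell and 8 did not pass. The coreceptor gene Cd8a rose by 1.07 (limma, adjusted p = 0.0235) and Cd247, the zeta chain of the T cell receptor complex, by 0.81 (limma, adjusted p = 0.0275). Named after their values were seen, Cd3g (-0.47), Cd3d (-0.30) and Cd3e (-0.14) of the same complex and the adhesion gene Cd2 (-0.79) were lower with GSI without overlap of the groups and did not pass. Cd4 (0.75), Thy1 (0.53), Bcl11b (0.33) and Rag1 (0.11), named in the same way, were higher without overlap and did not pass either. In all, 6 of the 10 markers were higher without overlap and 4 lower (list median 0.22). Nrarp, a feedback inhibitor of Notch, fell by 2.42 (limma, adjusted p = 0.00288). Of 8 stromal and epithelial markers 0 rose, 1 fell and 7 did not pass. The growth factor receptor gene Pdgfrb fell by 1.28 (limma, adjusted p = 0.0102). Named after their values were seen, Pdgfra (0.55) and Epcam (0.06) were higher and Cdh1 (-1.51) and Krt5 (-0.26) lower without overlap, and none of them passed. Of the B cell and myeloid markers 0 passed limma, and an unadjusted p under 0.05 was reached by 0 and 1 of them. The smallest p-values there were those of Ms4a1 (-0.19) and Cd22 (0.20), and of Itgam (1.05) and Elane (0.29).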
